A study of Mus musculus with 21 samples.

Results

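Proteins that read acetylated histones, and the acetyltransferases that work with them, were followed at the RNA level through mouse spermatogenesis. The genes were taken by name and comprise the ATAD2 family (*Atad2*, *Atad2b*), 3 genes of the BET family (*Brdt*, *Brd2*, *Brd3*), *Nutm1*, and the paralogous acetyltransferase genes *Ep300* and *Crebbp*. These are 8 of the 24456 genes counted in each library, and all 8 passed the filter on low counts in every comparison. RNA from purified testicular cell fractions was sequenced in 21 libraries. Pachytene spermatocytes (PS), round spermatids (RS) and condensing spermatids (CS) were each represented by 3 wild-type and 3 *H2al2* KO libraries, and spermatozoa (SZ) by 2 wild-type libraries and 1 *H2al2* KO library. The *H2al2* KO mice lack the histone variant H2A.L.2. The labels give testis as the source of every library, spermatozoa included. Strain, age and the structure of the *H2al2* allele are not given in the sources used here. Counts on genes ranged from 2772995 to 8201682 per library with a median of 6872271, and the 3 spermatozoon libraries were the shallowest.

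A bromodomain is a small fold that binds acetylated lysine, most often on histone tails. During the last steps of sperm formation, histones become hyperacetylated and are then replaced by transition proteins and protamines, so that acetyltransferases and bromodomain readers act just before the genome is repackaged. BRDT is the testis-specific BET protein and binds hyperacetylated histone H4, whereas BRD2 and BRD3 are made in most tissues. NUT, the product of *Nutm1*, is a testis protein that binds p300 and CBP, the products of *Ep300* and *Crebbp*, and promotes H4 acetylation in spermatids. ATAD2 joins a bromodomain to an ATPase domain and acts on histone chaperones, and ATAD2B is its paralog.

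The targeted gene was examined first. The gene of H2A.L.2, listed as *H2afb1* (GRCm38 chr2:17996417-17996958, minus strand), had 201, 206 and 212 normalized CPM (read counts scaled to a common library size) in wild-type round spermatids and 25.4, 25.4 and 20.7 in *H2al2* KO ones. In condensing spermatids it had 190, 160 and 250 CPM in wild type and 26.4, 35.7 and 29.9 in *H2al2* KO. In pachytene spermatocytes it had 40.5, 36.4 and 14.5 CPM in wild type and 4.78, 4.91 and 3.14 in *H2al2* KO. Every *H2al2* KO library thus lay below every wild-type library of its stage. The log2 fold change was -3.10 ± 0.10 (SE) in round spermatids by the edgeR quasi-likelihood test (adjusted p = 3.4e-08), and at the condensing stage it was -2.71 ± 0.17 (adjusted p = 9.54e-07). In pachytene spermatocytes it was -2.75 ± 0.37 and did not pass the test over all genes (edgeR, adjusted p = 0.484), although 4 of 12 alternatives passed. The adjusted p was 5.17e-05 without wild-type replicate 3, within a range from 6.79e-11 to 0.958. Some reads remained in the *H2al2* KO libraries, and because reads that aligned to several places were not counted, the counts of this gene, which has near-identical relatives, are uncertain.

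The fractions were also checked against marker genes. The 9 pachytene markers summed to 2286 CPM on average in the wild-type pachytene fraction, to 913 CPM in round spermatids and to 1096 CPM at the condensing stage. *Piwil1*, which encodes a PIWI protein of late meiosis and round spermatids, was the most abundant of them in pachytene spermatocytes, with 1150 CPM. The 7 round spermatid markers, led by the acrosomal gene *Acrbp* in the first 2 stages and by the kinase gene *Tssk1* in condensing spermatids, summed to 696, 1746 and 934 CPM in the same 3 stages. The 8 markers of elongating and condensing spermatids summed to 3664, 23877 and 27081 CPM, with the protamine gene *Prm2* on top at 1060, 7320 and 9442 CPM. The mean marker sums were thus highest in the fraction whose label they fit, although single markers did not all follow. Of the 9 pachytene markers, 4 were lower and 1 higher in round spermatids than in pachytene spermatocytes (median log2 fold change -0.40), and 3 rose and 3 fell at the next step (median 0.83), both in wild type by edgeR. In *H2al2* KO, 5 rose and 3 fell at that next step by edgeR (median 0.98). Those that rose there were *Piwil1* (1.47), *Sycp3* (1.27), *Hormad1* (1.12), *Sycp2* (1.09) and *Sycp1* (0.98), and *Ccna1*, *Ovol2* and *Tbpl1* fell. *Sycp2* was the most abundant pachytene marker in wild-type condensing spermatids (263 CPM). Of the 7 round spermatid markers, 6 rose and then 6 fell in wild type. For the last list the wild-type round and condensing libraries overlapped (22534 to 25018 and 22257 to 32922 CPM), and 1 of the 8 markers was called higher at the condensing stage by edgeR (median log2 fold change -0.02). These markers therefore do not set condensing apart from round spermatids. Spermatid RNA was also present in the pachytene fraction, most in wild-type replicates 1 and 2 (4675 and 4497 CPM) and least in wild-type replicate 3 (1822 CPM). The 8 Sertoli cell markers were at 45.6 and 51.8 CPM in wild-type pachytene spermatocytes and round spermatids and at 532 CPM in condensing spermatids, where *Clu* was the most abundant at 290 CPM. All 7 Sertoli markers tested and all 6 Leydig markers were higher in condensing than in round spermatids, and the Leydig markers summed to 114, 11.3 and 168 CPM in the 3 stages, with *Cyp17a1* on top in pachytene spermatocytes and condensing spermatids (39.5 and 53.7 CPM). Myoid markers were at 76.4, 331 and 345 CPM, of which *Actg2* made up 63.5, 319 and 299 CPM. From round to condensing spermatids *Actg2* changed by -0.07 ± 0.23 on the log2 scale (edgeR, adjusted p = 0.833), whereas the other 3 myoid markers tested rose, *Acta2* by 2.46 ± 0.38, *Des* by 2.60 ± 0.49 and *Myh11* by 1.80 ± 0.22 (adjusted p up to 0.000866). Spermatogonium markers, led by *Kit*, *Kit* and *Uchl1*, were at 46.9, 47.3 and 76.2 CPM. Red blood cell markers, nearly all from *Alas2*, were at 0.723, 1.52 and 22.2 CPM, and macrophage markers at 3.72, 23.4 and 31.8 CPM. The part of these markers in the changes below was not tested. In such fractions fewer cells of a type and less RNA per cell cannot be told apart.

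The 8 genes covered a wide span of abundance. Per kilobase of exon, mean levels in wild-type round spermatids were 114 CPM per kb for *Brd2*, 70.2 for *Brdt*, 42.4 for *Nutm1*, 37.1 for *Brd3*, 16.2 for *Atad2*, 10.4 for *Crebbp*, 8.36 for *Ep300* and 2.7 for *Atad2b*. On that scale *Brd2* lay above 96.4% of the 24056 genes of known length in these cells, *Brdt* above 94.1% and *Atad2b* above 64.9%. *Brd2* and *Brdt* were thus the most abundant readers at this stage and *Atad2b* the least abundant of the 8 genes.

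**Figure D1:**
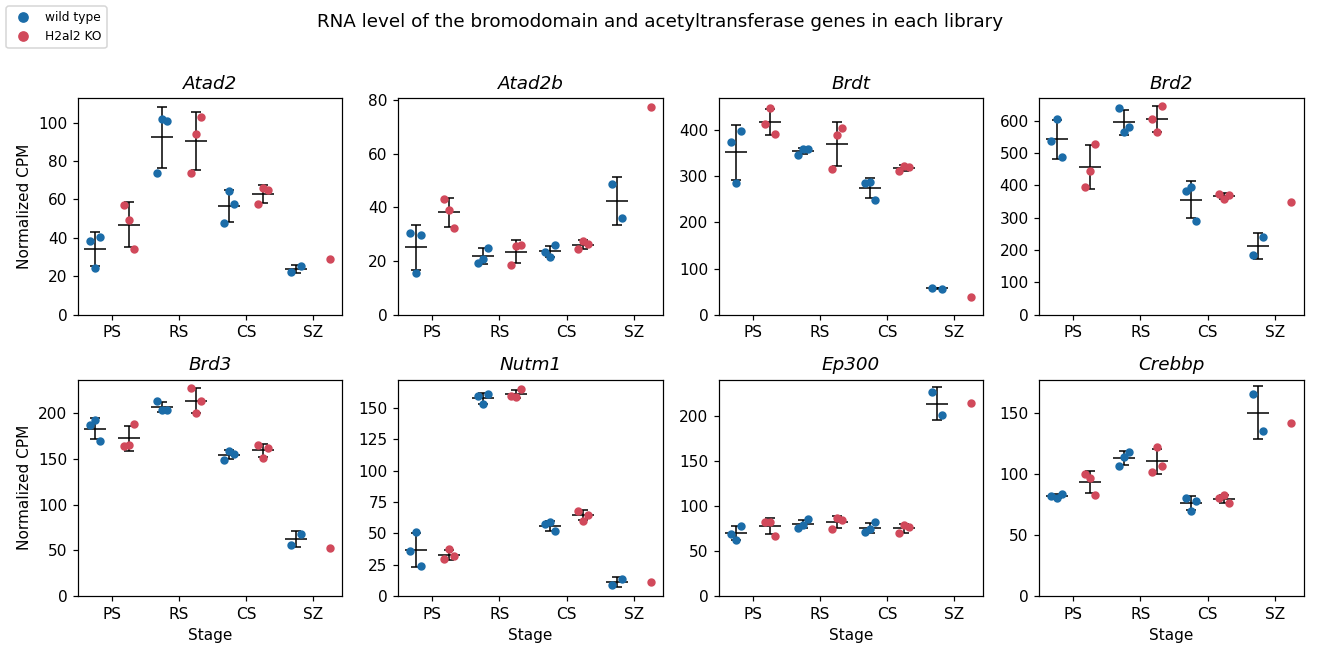
Normalized CPM of the 8 genes in each library, by stage (PS, RS, CS and SZ for pachytene spermatocytes, round spermatids, condensing spermatids and spermatozoa) and genotype; points are libraries, and bars are the mean and SD of a group. *Atad2* and *Nutm1* stand highest in round spermatids (means of 92.0 and 158 CPM in wild type), whereas *Ep300* and *Crebbp* stand highest in spermatozoa (214 and 151 CPM).

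The first comparison asked which of these genes change from meiosis to the haploid stage. In wild type, *Atad2*, *Nutm1* and *Crebbp* rose from pachytene spermatocytes to round spermatids, 3 of 8 genes, where 34.4% of the 14011 genes tested were higher by the same edgeR test. None of the 8 was lower, against 35.9% of all genes, and none had an unadjusted p under 0.05 in that direction or was called lower by DESeq2. The median log2 fold change of the 8 genes was 0.21, and that of all genes tested -0.016. In *H2al2* KO, 4 of 8 were higher (36.5% of all genes) and 1 was lower (38.4%). With at least 10 counts in every library, 5 of 8 were higher in wild type (36.1% of 10809 genes) and 5 of 8 in *H2al2* KO (38.6% of 10611), and counts among 8 genes that move in this way do not set them apart from all genes. From round to condensing spermatids, 5 of 8 fell in wild type (21.8% of all genes) and 0 rose (28.3%), and in *H2al2* KO likewise 5 of 8 fell (24.5%) and 0 rose (29.7%), with a median log2 fold change of -0.47 in wild type beside 0.043 over all genes. None of the 8 had an unadjusted edgeR p under 0.05 in the upward direction in either genotype, and DESeq2 called 0 higher. The round spermatid libraries of a genotype enter both of its comparisons, which are therefore not independent. The labels do not say that the libraries came from separate animals, although the study describes the wild-type round spermatid ones as independent biological replicates, so the p-values measure the spread between these samples.

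*Atad2* (GRCm38 chr15:58094044-58135082, minus strand) had 38.1, 24.2 and 40.2 CPM in the wild-type pachytene libraries, 73.7, 102 and 101 in the round spermatid libraries and 47.9, 64.1 and 57.8 in the condensing ones. In *H2al2* KO it had 56.9, 49.4 and 34.2 CPM, then 73.5, 94.2 and 103, then 57.5, 65.7 and 65.0 in the same order. In both genotypes the 3 stages did not overlap, with round spermatids on top and condensing spermatids in between. The log2 fold change from pachytene spermatocytes to round spermatids was 1.45 ± 0.20 (SE) in wild type (edgeR, adjusted p = 2.1e-05) and 0.93 ± 0.16 in *H2al2* KO (adjusted p = 2.31e-05). The next step, into condensing spermatids, was -0.67 ± 0.19 in wild type (edgeR, adjusted p = 0.0113) and -0.51 ± 0.15 in *H2al2* KO (adjusted p = 0.00822). The wild-type decrease was -0.57 and lost its call without condensing spermatid replicate 1, the lowest of its group (edgeR, adjusted p = 0.0539, with a range from 0.00205 to 0.0539 over 16 alternatives). The rise into round spermatids differed between genotypes by -0.53 ± 0.28 on the log2 scale, which did not pass its test (edgeR, adjusted p = 0.676). The testis also makes a short *Atad2* transcript, and counts per gene do not separate it from the long form.

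*Atad2b* (chr12:4917353-5047394, plus strand) followed another course. It had 30.3, 15.4 and 29.7 CPM in wild-type pachytene spermatocytes, 19.2, 20.9 and 25 at the round and 23.5, 21.6 and 25.8 at the condensing stage, and these ranges overlapped. In *H2al2* KO it had 43.0, 39.0 and 32.4 CPM in pachytene spermatocytes and 18.4 to 27.5 in the 2 spermatid stages, with no overlap between pachytene and later cells. Entry into the round spermatid stage changed it by -0.73 ± 0.15 on the log2 scale in *H2al2* KO (edgeR, adjusted p = 0.000176) and by -0.19 ± 0.22 in wild type (adjusted p = 0.463). Without wild-type pachytene replicate 2, which held the lowest value, the wild-type change was -0.45 (edgeR, adjusted p = 0.0145, with a range from 0.0145 to 0.908 over 16 alternatives). The difference between the genotypes in this change did not pass its own test (log2 difference -0.54 ± 0.29, edgeR, adjusted p = 0.676).

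Among the BET genes, *Brdt* (chr5:107331159-107387058, plus strand) had no called change at either step, from pachytene spermatocytes to round spermatids or from those to condensing spermatids, in either genotype. Its level was 374, 285 and 399 CPM in wild-type pachytene spermatocytes, 347, 359 and 360 at the round and 286, 288 and 249 at the condensing stage. In *H2al2* KO it was 414, 449 and 392 CPM, then 315, 390 and 406, then 311, 323 and 320 in the same order. The wild-type round and condensing libraries did not overlap, whereas pachytene libraries of both genotypes overlapped with round spermatids. Between round and condensing spermatids the log2 fold change was -0.35 ± 0.14 in wild type (95% interval -0.65 to -0.05) and just missed the threshold (edgeR, adjusted p = 0.0524), which 6 of 16 alternatives passed (0.0137 to 0.126). In *H2al2* KO it was -0.20 ± 0.11 (edgeR, adjusted p = 0.123), and -0.32 and called without round spermatid replicate 1 (edgeR, adjusted p = 0.0177, with a range from 0.0177 to 0.294 over 15 alternatives). The *H2al2* KO condensing libraries lay below the pachytene ones, and condensing and pachytene cells were not tested against each other.

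*Brd2* (chr17:34112023-34122634, minus strand) had the highest mean per kilobase of the 8 genes in all 8 groups of libraries. It had 536, 606 and 486 CPM in wild-type pachytene spermatocytes, 639, 564 and 580 at the round and 381, 396 and 289 at the condensing stage. In *H2al2* KO it had 394, 444 and 529 CPM, then 606, 564 and 645, then 373, 357 and 371 in the same order of stages. All condensing spermatid libraries lay below all round spermatid libraries of either genotype. Between those stages the log2 fold change was -0.72 ± 0.14 in wild type (edgeR, adjusted p = 0.00120) and -0.70 ± 0.11 in *H2al2* KO (adjusted p = 1.99e-05). The step before, into round spermatids, was 0.15 ± 0.14 in wild type (edgeR, adjusted p = 0.345) and 0.39 ± 0.11 in *H2al2* KO (adjusted p = 0.00266), and the difference between genotypes did not pass its test (0.22 ± 0.18, adjusted p = 0.750).

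*Brd3* (chr2:27445579-27507662, minus strand) ranged from 164 to 192 CPM in the 6 pachytene libraries, 200 to 228 in the 6 round spermatid libraries and 149 to 165 in the 6 condensing spermatid libraries. The round spermatid libraries lay above all others in both genotypes. Its log2 fold change from round to condensing spermatids was -0.40 ± 0.11 in wild type (edgeR, adjusted p = 0.00793) and -0.41 ± 0.10 in *H2al2* KO (adjusted p = 0.00143). The preceding step was 0.20 ± 0.11 in wild type (edgeR, adjusted p = 0.108) and 0.29 ± 0.10 in *H2al2* KO (adjusted p = 0.0108), and the genotypes differed in it by 0.08 ± 0.13, which did not pass the test (adjusted p = 0.889). In wild type 2 of 16 alternatives called this step (0.0146 to 0.302).

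*Nutm1* (chr2:112247948-112259291, minus strand) showed the largest changes of the 8 genes at the 2 steps between the first 3 stages. It had 35.9, 50.8 and 23.8 CPM in wild-type pachytene spermatocytes, 160, 153 and 161 at the round and 57.2, 59.4 and 51.8 at the condensing stage. In *H2al2* KO it had 29.1, 37.4 and 32.1 CPM, then 160, 159 and 165, then 68.1, 60.2 and 65.0. The 6 round spermatid libraries lay close together and far above all others. The log2 fold change from pachytene spermatocytes to round spermatids was 2.12 ± 0.20 in wild type (edgeR, adjusted p = 9.03e-07) and 2.27 ± 0.11 in *H2al2* KO (adjusted p = 8.42e-13), which are changes of 4.34-fold and 4.83-fold. From round to condensing spermatids it was -1.47 ± 0.20 in wild type (edgeR, adjusted p = 7.75e-05) and -1.31 ± 0.11 in *H2al2* KO (adjusted p = 1.16e-08).

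The acetyltransferase genes that NUT partners with changed less. *Crebbp* (chr16:4081328-4213997, minus strand) had 82.0, 80.2 and 83.5 CPM in wild-type pachytene spermatocytes, 107, 114 and 118 at the round and 80.5, 69.5 and 78.1 at the condensing stage. The wild-type round spermatid libraries stood above both neighbours without overlap, and the *H2al2* KO ones too (102 to 122 CPM, against 82.9 to 100 and 76.1 to 82.8). The log2 fold change was 0.49 ± 0.11 on entry into the round spermatid stage in wild type (edgeR, adjusted p = 0.00135) and -0.54 ± 0.11 on leaving it (adjusted p = 0.00137). In *H2al2* KO the same changes were 0.22 ± 0.11 (edgeR, adjusted p = 0.0796, and under 0.05 in 4 of 15 alternatives, from 0.0123 to 0.321) and -0.45 ± 0.11 (adjusted p = 0.00191). The genotypes differed in the first change by -0.28 ± 0.15, which did not pass its test (edgeR, adjusted p = 0.676).

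*Ep300* (chr15:81585351-81652077, plus strand) ranged from 62.3 to 87.3 CPM over all 18 libraries of the first 3 stages. All stages overlapped in both genotypes. Its log2 fold changes between stages lay between -0.11 and 0.22, and none of the 4 passed the test (edgeR, adjusted p from 0.122 to 0.765). The 95% interval of the change from pachytene spermatocytes to round spermatids in wild type ran from -0.04 to 0.49, so that moderate changes cannot be told from none. The wild-type rise of 0.22 passed without pachytene replicate 3 (edgeR, adjusted p = 0.0343) and with at least 10 counts in every library (0.0334), within a range from 0.0334 to 0.332 over 16 alternatives.

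Ratios within a library need no scaling between libraries, and were used to ask how related genes are balanced. They were taken on counts per kb, with 0.5 count added, and 20 exact two-sided permutation tests were made with Benjamini-Hochberg adjustment. The stage tests set 6 libraries, 3 wild type and 3 *H2al2* KO, against 6. *Atad2* exceeded *Atad2b* 1.49- to 2.22-fold per kb in the 6 pachytene libraries, 5.17- to 6.87-fold in the 6 round spermatid libraries and 2.88- to 4.18-fold in the 6 condensing spermatid libraries. The stages did not overlap, and the log2 ratio differed by 1.64 between round spermatids and pachytene spermatocytes and by -0.75 between condensing and round spermatids (exact permutation test, p = 0.00216, the smallest that 6 against 6 libraries allow, adjusted p = 0.00866 for both). The ATAD2 family was thus most strongly weighted towards *Atad2* in round spermatids.

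The balance of the BET genes moved at the later step. *Brdt* per kb of exon was 0.537 to 0.715 of *Brd2* in round spermatids and 0.752 to 0.937 of it in condensing spermatids, a log2 difference of 0.44 with no overlap (exact permutation test, p = 0.00216, adjusted p = 0.00866). In pachytene spermatocytes the ratio spread from 0.486 to 1.09, and its log2 difference from round spermatids was -0.35 (exact permutation test, p = 0.0866, adjusted p = 0.247). Without wild-type pachytene replicate 2, where *Brd2* was highest and *Brdt* lowest, that difference was -0.50 and passed the test. It was -0.11 in wild type alone and -0.60 in *H2al2* KO alone, so that the pooled value stands for neither genotype. *Brd3* was 0.309 to 0.353 of *Brd2* per kb in round spermatids and 0.368 to 0.502 in condensing spermatids, a log2 difference of 0.31 (exact permutation test, p = 0.00216, adjusted p = 0.00866). As shares of the 3 BET genes per kb, *Brdt*, *Brd2* and *Brd3* made up 31.8%, 51.4% and 16.8% in wild-type round spermatids (SD 1.62, 1.74 and 0.179, n = 3). In wild-type condensing spermatids the shares were 36.2%, 45.2% and 18.6% (SD 0.938, 2.91 and 2.07, n = 3).

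*Ep300* and *Crebbp* had similar counts per kb in these stages. The ratio of *Ep300* to *Crebbp* was 0.879 to 1.05 in pachytene spermatocytes, 0.780 to 0.898 at the round and 0.982 to 1.21 at the condensing stage. Round spermatids thus had the lowest ratio, with overlap only towards pachytene spermatocytes. The log2 difference was -0.21 between round spermatids and pachytene spermatocytes (exact permutation test, p = 0.00433, adjusted p = 0.0144) and 0.42 between condensing and round spermatids (p = 0.00216, adjusted p = 0.00866).

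**Figure D2:**
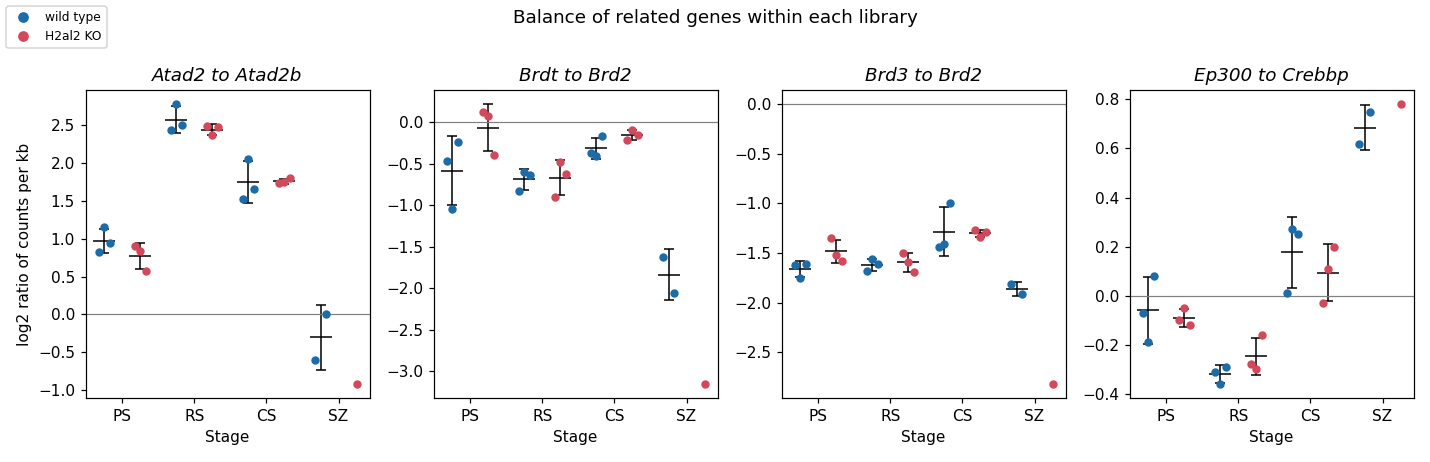
Log2 ratio of counts per kb of exon for 4 pairs of related genes in each library, by stage and genotype; points are libraries, bars are the mean and SD of a group, and the grey line marks equal counts per kb. The *Atad2* to *Atad2b* ratio peaks in round spermatids (mean log2 ratios of 2.57 in wild type and 2.45 in *H2al2* KO) and is lowest in spermatozoa (-0.31 in wild type).

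Spermatozoa, which carry little RNA, gave a different picture. In wild type, all 8 genes differed between spermatozoa and condensing spermatids, 3 higher (36.6% of the 15116 genes tested) and 5 lower (35.8%). The log2 fold change was 1.52 ± 0.14 for *Ep300* (edgeR, adjusted p = 5.41e-09), 1.01 ± 0.15 for *Crebbp* (adjusted p = 3.17e-06) and 0.87 ± 0.18 for *Atad2b* (adjusted p = 0.000223). It was -2.32 ± 0.21 for *Nutm1* (edgeR, adjusted p = 3.9e-09), -2.24 ± 0.16 for *Brdt* (adjusted p = 9.61e-11), -1.29 ± 0.16 for *Brd3* (adjusted p = 2.24e-07), -1.22 ± 0.19 for *Atad2* (adjusted p = 5.02e-06) and -0.72 ± 0.17 for *Brd2* (adjusted p = 0.000784). Per kb, *Atad2* was 0.653 and 1 of *Atad2b* in these libraries, *Brdt* 0.325 and 0.242 of *Brd2*, and *Ep300* 1.54 and 1.68 times *Crebbp*. The *Brd2* decrease lost its call without spermatozoon replicate 1 (edgeR, adjusted p = 0.0610, with a range from 3.98e-12 to 0.0610 over 11 alternatives, and the remaining library is then assumed to vary like the condensing spermatids).

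*Ep300* had 227 and 201 CPM in the wild-type spermatozoon libraries and 215 in the *H2al2* KO one, *Brdt* 57.6 and 56.1 against 37.8, and *Nutm1* 8.53 and 13.8 against 11.4. *Atad2b* had 48.5 and 36.0 CPM against 77.5, *Brd2* 184 and 241 against 348, *Atad2* 22.4 and 25.4 against 28.9, *Brd3* 55.6 and 68.1 against 52.3, and *Crebbp* 166 and 135 against 142. *Brdt* and *Brd3* therefore lay lower, and *Atad2*, *Atad2b* and *Brd2* higher, in the single *H2al2* KO library than in either wild-type library, and with 1 library this has no replicate check. The same libraries carried RNA of other cells. The 7 macrophage markers summed to 781 and 740 CPM in wild-type spermatozoa and 3625 CPM in the *H2al2* KO library, against 31.8 CPM in wild-type condensing spermatids, and none of the 7 was at 0. The lysozyme gene *Lyz2* was the most abundant of them, with 480 CPM in wild type and 2396 CPM in *H2al2* KO. The 7 epididymal markers summed to 1534 and 1626 CPM and to 532 CPM, nearly all from *Crisp1*, while *Lcn5* and *Lcn8* were at 0 in all 3 libraries. The 8 Sertoli markers summed to 277 and 243 CPM and to 1409 CPM, the last mostly from the protease gene *Ctsl*, which other cells also express. The markers of elongating and condensing spermatids summed to 15542 and 12367 CPM in wild type and to 3374 CPM in the *H2al2* KO library. The most abundant gene of that library was *Rn45s*, a precursor of ribosomal RNA, with 15.9% of its counts, and in the wild-type ones it was *mt-Rnr2* with 9.62% and 9.28%. The part of these differences in the spermatozoon values was not tested.

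**Figure D3:**
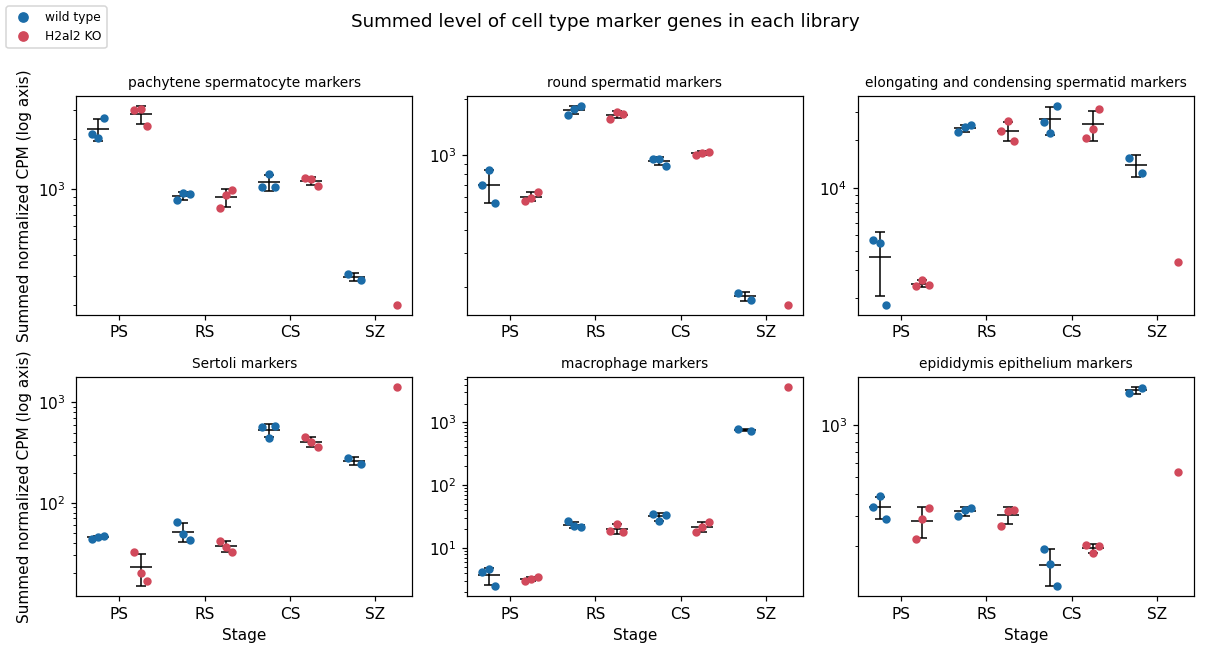
Summed normalized CPM of 6 marker lists in each library, on log axes, by stage and genotype; points are libraries and bars are the mean and SD of a group. Macrophage markers stand at 31.8 CPM in wild-type condensing spermatids, at 760 in wild-type spermatozoa and at 3625 in the *H2al2* KO spermatozoon library.

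The effect of losing H2A.L.2 on these genes was asked at each stage. None of the 8 was called in pachytene spermatocytes (0% of the 12236 genes tested), in round spermatids (0.0156% of 12804) or in condensing spermatids (0.00728% of 13734) by the edgeR test, and DESeq2 called 0 of 8 at each of these stages too. Besides *H2afb1*, 1 gene passed in round spermatids, *Sptbn4*, which is named after its values were seen, and none in condensing spermatids. An unadjusted edgeR p under 0.05 was reached by 1 of the 8 genes in pachytene spermatocytes (815 of all 12236) and by 0 in round (753 of 12804) and condensing spermatids (870 of 13734). Shares this small among all genes leave little for a list of 8 to show, and a missed threshold does not show that levels were equal. These shares were larger without certain single libraries and, at the round and condensing stages, with the replicate block (see the part on processing). None of the 8 genes was called under those alternatives either.

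In round spermatids the log2 fold changes of the 8 genes ran from -0.02 to 0.12. *Atad2*, the ATPase gene with the lowest estimates together with *Crebbp*, changed by -0.02 ± 0.15 (95% interval -0.34 to 0.31), and its 3 *H2al2* KO libraries overlapped with the wild-type ones. *Atad2b* had the highest estimate, 0.12 ± 0.16 (95% interval -0.23 to 0.47). For *Nutm1* and *Brd2* the intervals were narrower, from -0.13 to 0.21 and from -0.14 to 0.21. Sertoli markers summed to 32.7 to 41.7 CPM in the *H2al2* KO round spermatid libraries and 42.5 to 63.9 CPM in the wild-type ones. Leydig markers summed to 5.9 to 8.78 and 9.93 to 12.6 CPM, whereas the mean of the myoid sums was higher in *H2al2* KO (368 and 331 CPM). The part of these markers in the round spermatid estimates was not tested. In condensing spermatids the log2 fold changes ran from -0.02 ± 0.11 for *Ep300* (95% interval -0.25 to 0.20) to 0.20 ± 0.11 for *Brdt* (95% interval -0.03 to 0.43). All 3 *H2al2* KO libraries lay above all 3 wild-type libraries for *Brdt* and for *Nutm1* at this stage, where *Nutm1* changed by 0.19 ± 0.10, and neither passed the test (edgeR, adjusted p = 0.846 and 0.848). In the same libraries the mean sums of 5 somatic marker lists were lower in *H2al2* KO, and that of the epididymal list, mostly *Spink2*, was higher (196 and 156 CPM). Leydig markers summed to 75.6 to 114 CPM in *H2al2* KO and 130 to 199 CPM in wild type, Sertoli markers to 405 and 532 CPM on average, macrophage markers to 21.7 and 31.8 CPM, myoid markers to 327 and 345 CPM and red blood cell markers to 21.4 and 22.2 CPM. The myoid gene *Acta2* had a log2 fold change of -0.94 ± 0.18 (edgeR, adjusted p = 0.160). The other myoid markers tested, *Actg2*, *Myh11* and *Des*, had smaller estimates of -0.05, -0.13 and -0.16. *Insl3* had a log2 fold change of -1.24 ± 0.19 (edgeR, adjusted p = 0.0657). Round spermatid markers summed to 1005, 1035 and 1048 CPM in the *H2al2* KO libraries and 963, 961 and 877 CPM in the wild-type ones, and were thus also higher in *H2al2* KO without overlap. The part of these markers in the estimates of *Brdt* and *Nutm1* was not tested.

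The widest range was found in pachytene spermatocytes, from -0.18 ± 0.12 for *Brd2* to 0.66 ± 0.27 for *Atad2b*. All *H2al2* KO libraries exceeded all wild-type libraries for *Atad2b*, the gene with an unadjusted p under 0.05 (edgeR, adjusted p = 0.656). *Atad2* had the next highest estimate, 0.52 ± 0.26 (edgeR, adjusted p = 0.656), with overlap between genotypes. Without wild-type replicate 2, the lowest in both genes, the estimates were 0.36 for *Atad2b* and 0.27 for *Atad2*, within ranges from 0.36 to 0.85 and from 0.27 to 0.71 over 12 alternatives each. In these cells the markers of elongating and condensing spermatids summed to 2472 CPM in *H2al2* KO and 3664 CPM in wild type, pachytene markers to 2806 and 2286 CPM, Leydig markers to 54.1 (22.3 to 94.3) and 114 (69.2 to 139) CPM, and Sertoli markers to 23.1 (16.8 to 32.2) and 45.6 (43.9 to 47.2) CPM. *Clu* made up 11.4 and 23.9 CPM of the last sums and did not pass the test (edgeR, adjusted p = 0.656). The part of these markers in the estimates was not tested.

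Over the 3 stages together, again 0 of 8 genes were called (0.366% of the 14479 genes tested, or 53 genes) by edgeR, and 0 by DESeq2. The called genes included 3 somatic markers that were lower in *H2al2* KO, *Clu* of Sertoli cells at -0.68 ± 0.11 (edgeR, adjusted p = 0.00934) and *Insl3* and *Hsd3b1* of Leydig cells at -1.17 ± 0.23 and -1.09 ± 0.24 (adjusted p = 0.0268 and 0.0463), and their part in the values below was not tested. *Brdt* and *Atad2b*, 2 of the 8, had an unadjusted p under 0.05, as did 1455 of the 14479 genes. The log2 fold change of *Brdt* was 0.20 ± 0.08 (edgeR, adjusted p = 0.331), and that of *Atad2b* was 0.32 ± 0.13 (edgeR, adjusted p = 0.351). The other 6 genes lay between -0.03 for *Brd2* and 0.21 for *Atad2*. The effect of the loss did not differ detectably between round spermatids and pachytene spermatocytes for any of the 8 genes (0 called by edgeR or DESeq2, against 0% of 14479 genes, and 0 with an unadjusted p under 0.05, against 1050), with differences from -0.54 for *Atad2b* to 0.22 for *Brd2*. Between condensing and round spermatids the result was again 0 of 8 by edgeR and DESeq2 (0% of 14479 genes) and 0 at an unadjusted p under 0.05 (407 genes), with differences from -0.07 for *Ep300* to 0.15 for *Atad2* and *Nutm1*. Differences between genotypes in the ratios within families ran from -0.20 to 0.52 on the log2 scale, and none of these 12 tests passed. With 3 against 3 libraries the exact permutation p cannot go below 0.1. Only *Brd3* to *Brd2* in pachytene spermatocytes reached that value, without overlap (0.334 to 0.391 in *H2al2* KO, 0.297 to 0.328 in wild type, log2 difference 0.17). The other tests gave an exact permutation p of 0.2 or more.

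Other genes of the same functions were followed to place the 8 genes. On entry into the round spermatid stage 34.4% of all genes rose and 35.9% fell in wild type by edgeR. At the next step the shares were 28.3% and 21.8%. The lists below were not tested against these shares or against each other. Of 30 other bromodomain genes tested in wild type, 6 rose and 14 fell from pachytene spermatocytes to round spermatids, with a median log2 fold change of -0.40 beside 0.21 for the 8 genes and -0.016 for all genes. Those that rose most were *Brwd3* (2.42 ± 0.19), the acetyltransferase gene *Kat2b* (2.37 ± 0.13) and *Trim66* (1.74 ± 0.18). Those that fell included *Baz1a*, a subunit gene of chromatin remodelers (-1.84 ± 0.15), and *Brd8* (-1.77 ± 0.15), all by edgeR with adjusted p up to 1.69e-06. In the next step 8 of these 30 genes rose and 8 fell, with *Zmynd8* at 1.68 ± 0.39 and *Brpf1* at -0.87 ± 0.17, and the median was -0.08 beside -0.47 for the 8 genes.

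Among the 13 other acetyltransferase genes, 4 rose and 8 fell on entry into the round spermatid stage, with a median of -1.06. Neither *Ep300* nor *Crebbp* was called lower, and this difference between the genes was not tested. *Cdyl*, whose product is a chromodomain protein of spermatids, rose by 2.38 ± 0.22 on the log2 scale, and *Naa40*, which encodes an acetyltransferase of histone N termini, fell by 2.13 ± 0.13. In condensing spermatids 5 rose and 1 fell, with *Clock* at 1.27 ± 0.26 and *Hat1* at -0.90 ± 0.15, and the median was 0.31. Of 13 deacetylase genes, 3 rose and 4 fell in the first step (median -0.20), with *Hdac11* at 2.12 ± 0.19 and *Sirt7* at -1.99 ± 0.26. In the second step 5 rose and 3 fell (median 0.20), with *Hdac6* at 2.16 ± 0.21 and *Hdac5* at -0.99 ± 0.15.

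The 10 genes of the elongation machinery that BET proteins contact split into 4 that rose and 5 that fell (median -0.15) in the first step and 3 and 4 (median -0.14) in the second. *Cdk9*, the kinase gene of the elongation factor P-TEFb, changed by -2.32 ± 0.17 and then by 1.38 ± 0.18, while *Ccnt1*, which encodes its cyclin partner, changed by 1.06 ± 0.14 and then by -0.72 ± 0.14. *Ccnt1* thus rose and fell at the same steps as *Atad2* and *Nutm1*, and *Cdk9* at the opposite ones. Of the 6 chaperone genes linked to ATAD2, 4 fell and 0 rose in the first step by edgeR (median -0.96), among them the FACT subunit gene *Supt16* (-2.34 ± 0.18) and the H3.3 chaperone genes *Hira* (-1.49 ± 0.23) and *Ubn1* (-1.19 ± 0.11), where *Atad2* rose. In the second step 1 rose, *Supt16* at 0.94 ± 0.18, and 0 fell by edgeR (median -0.04). Of the 10 histone replacement genes, 8 rose and 2 fell in the first step (median 2.66), with *Prm1* at 2.84 ± 0.32 and the testis histone gene *Hist1h2ba* at -3.63 ± 0.23. In the second step 2 rose and 0 fell (median -0.04).

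Genes with the most similar course to each of the 8 were sought over the 8 groups of libraries among 15321 genes, by the root-mean-square difference of centred mean log2 CPM. The closest to *Atad2* was *Fam179b* (0.088), followed by *Akap10* and *G2e3*. The closest to *Nutm1* was *Gm20611* (0.059), the closest to *Brdt* was *Cfap97* (0.101), with the germ cell helicase gene *Ddx4* next (0.108), and the closest to *Brd2* and *Brd3* were *Supv3l1* (0.067) and *Taf6* (0.055). *Bdp1* was nearest to *Atad2b* (0.110), *Rap1gap* to *Ep300* (0.093) and *Pitpnb* to *Crebbp* (0.115). Among the 8 genes themselves, *Atad2b* and *Ep300* (0.36), *Ep300* and *Crebbp* (0.38) and *Atad2b* and *Crebbp* (0.45) were nearest to each other, and *Nutm1* and *Ep300* (1.92) were farthest apart. *Atad2* was closer to *Brd3* (0.46) and *Brd2* (0.48) than to its paralog *Atad2b* (1.17). Each group had equal weight in these distances, also the spermatozoon groups of 2 and 1 libraries, which carried RNA of other cells. In them the mean log2 ratio of *Atad2* to *Atad2b* per kb was -0.31 and -0.92, against 0.77 to 2.57 in the other groups. How far the distances rest on the spermatozoon libraries was not tested.

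RefSeq promoter sequences (GRCm38.p6) were matched for 6 of the 8 genes, all but *Atad2* and *Nutm1*, and the 250 bases before each RefSeq start were searched on both strands for 5 motifs. The windows of *Brd3*, *Ep300*, *Crebbp* and 2 of the 3 of *Brd2* lie inside the longer GENCODE gene. The cAMP response element TGACGTCA, which binds CREM, an activator of spermatid genes, was present in 1 gene, *Atad2b*, and in 1.55% of 32851 promoters. Its core TGACG, which lies within the full element, was present in *Atad2b* and *Brd2* and in 17.8% of promoters. *Brd2* had 3 windows, and the only stretch before its GENCODE gene start (223 bases) did not hold the core. The E-box CACGTG was present in *Brdt* and in 6.02% of promoters. The MYB core CAGTTG (11.1% of promoters) and the TATAAA box (12.4%) were in 0 of the 6. The sequences of *Atad2b* and *Brdt* are given because they hold a whole element, which is in capitals, and they end at the base before the GENCODE gene start, which leaves 215 of the 250 bases for *Brdt*. That of *Atad2b* is chr12:4917103-4917352, plus strand, and that of *Brdt* is chr5:107330944-107331158, plus strand.
Atad2b: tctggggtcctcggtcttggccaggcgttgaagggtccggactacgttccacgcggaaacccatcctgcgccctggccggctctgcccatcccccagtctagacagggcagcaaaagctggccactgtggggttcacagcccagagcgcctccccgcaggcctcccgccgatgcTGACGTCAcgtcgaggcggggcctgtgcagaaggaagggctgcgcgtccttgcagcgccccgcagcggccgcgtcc
Brdt: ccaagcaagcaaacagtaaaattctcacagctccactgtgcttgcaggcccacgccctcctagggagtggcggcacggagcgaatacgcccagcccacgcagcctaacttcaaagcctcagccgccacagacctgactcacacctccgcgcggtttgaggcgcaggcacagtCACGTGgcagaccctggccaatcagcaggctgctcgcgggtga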

How the data were processed

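RNA of 21 libraries was depleted of ribosomal RNA and sequenced as stranded, paired-end libraries. What the authors deposited are raw counts of reads, 1 file for each library. By the study's methods and the submitters' processing notes, reads were aligned to mm10 with STAR 2.7.11b and counted over exons with HTSeq, on the reverse strand and without multiply aligned reads, and DESeq2 1.22.2 is also named. The 5 entries that name no gene held 34.6% to 57.7% of reads and were left out. A count of 0 allows up to 3 counts, which is 0.366 to 1.08 CPM here.

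Groups came from the labels. Counts were tested with edgeR 4.0.16 (R 4.3.3) by the quasi-likelihood test, with TMM normalization, filterByExpr and Benjamini-Hochberg adjustment at 0.05 over all genes tested. In simulated counts the share of false calls lay above 0.05 in most comparisons, so calls close to this threshold are less certain than it states. The stages PS, RS and CS of a genotype were fitted together (9 libraries), spermatozoa with condensing spermatids (5), each *H2al2* KO effect within its stage (6), and the joint effect and differences on 18 libraries. Normalized CPM are TMM-scaled counts. Exon lengths came from GENCODE M21 (GRCm38), where 23377 genes matched by symbol, 679 by an older symbol and 400 did not, and gene positions from the same annotation. The authors counted on a UCSC mm10 gene table, so that values per kb, and the ranks, ratios and shares made from them, rest on lengths from other gene models than the counts.

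Alternatives were DESeq2 1.42.0 (Wald test and size factors), the omission of the filter, a minimum of 10 counts in each library, the replicate number as a block, all 21 libraries in one fit, wild-type round spermatid replicates 2 and 3 summed, and each replicate left out. Named were the 8 genes and *H2afb1*, the 3 most similar genes of each, the most abundant gene of each marker list, and, from 6 context lists, the genes with the largest called wild-type changes, at most 3 each way. The members, the lists and the 10 marker lists were chosen with earlier results of these data known.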

Additional observations from a re-analysis of the deposited data

Results flagged for a closer look

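The log2 ratio of *Atad2* to *Atad2b* per kb was 2.78 in wild-type round spermatid replicate 2, apart from the other 5 round spermatid libraries (2.37 to 2.51), with a gap of 0.659 of the whole range of the 6. Chance marks about 1 in 20 groups in this way, and 12 groups of 6 libraries were examined.

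*Brdt* stood out because its *H2al2* KO libraries lay on opposite sides of wild type at different stages. In condensing spermatids all 3 *H2al2* KO libraries were above all 3 wild-type libraries, with a ratio of means of 1.16, and round spermatid markers were higher there too (1005 to 1048 CPM, against 877 to 963 CPM). In spermatozoa the single *H2al2* KO library was below both wild-type libraries, with a ratio of 0.665. The difference was not tested, and the spermatozoon libraries also differed in macrophage markers (3625 CPM in *H2al2* KO, 781 and 740 CPM in wild type), in markers of elongating and condensing spermatids (3374 CPM, against 15542 and 12367 CPM) and in the most abundant gene (*Rn45s* with 15.9% of counts, against *mt-Rnr2* with 9.62% and 9.28%). The part of these differences was not tested.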

How the results depend on the processing

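Depth limits *Nutm1* most in spermatozoa (29 to 39 counts). Of 1656 single-gene alternative values for the 8 genes and *H2afb1*, 1565 had the same sign and the same call, 64 changed sign, 20 passed newly and 7 no longer passed. None of the 8 genes was called in a genotype comparison under any alternative. The 64 sign changes fell on 20 results, and 0 of them on a value that had passed the edgeR test. Without a filter the median log2 fold change of all genes moved to 0.115 from round to condensing spermatids and to -0.127 in spermatozoa, both in wild type. *H2afb1* rose from round to condensing spermatids in *H2al2* KO (0.38, adjusted p = 0.0368 by edgeR), and 5 alternatives no longer called it (up to 0.227). Where no cause is named, the cause was not tested.

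Replicate numbers were not read as pairs, and whether they mark shared animals or days is not given. In no pair of groups did all 3 same-numbered pairs of libraries correlate above 0.1, but single pairs did. The correlations ran from -0.160 to 0.240. They were 0.240, -0.088 and 0.212 for wild-type round and condensing spermatids, and 0.189, 0.065 and 0.042 for round spermatids of the 2 genotypes. These values do not settle whether same-numbered libraries share an origin. Wild-type round spermatid replicates 2 and 3 were much alike (mean chi-square 1.06 over genes from 100 summed counts) but differed in abundant genes (8.76 from 10000), and were kept apart. With the replicate block, 61 genes were called for the *H2al2* KO effect at the round and 26 at the condensing stage. The blocked ratio differences were 1.64 and -0.75 for *Atad2* to *Atad2b* (round spermatids minus pachytene spermatocytes, then condensing minus round spermatids), 0.44 and 0.31 for the second step of *Brdt* and of *Brd3* to *Brd2*, and -0.21 and 0.42 for *Ep300* to *Crebbp*. The block cannot give a p below 0.0312, nor pass after adjustment.

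In 1 genotype alone, where 3 against 3 cannot go below 0.1, the same ratio differences were 1.60 and -0.82, 0.38, 0.33, -0.26 and 0.50 in wild type and 1.67 and -0.68, 0.51, 0.30, -0.15 and 0.34 in *H2al2* KO. The first step of *Brd3* to *Brd2* was 0.04 in wild type, and that of *Brdt* to *Brd2* was -0.11 in wild type and -0.60 in *H2al2* KO.

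Requiring at least 10 counts gave 5 of the 8 genes higher from wild-type pachytene spermatocytes to round spermatids (36.1% of the 10809 genes tested), 14 genes called over the 3 stages, and values from round to condensing spermatids of 0.02 for *Ep300* and 0.05 for *H2afb1*. Genes called for the *H2al2* KO effect in pachytene spermatocytes, round spermatids, condensing spermatids and over the 3 stages were 2, 6, 13 and 129 with the DESeq2 test and 1, 28, 27 and 135 without a filter. Both called 1 gene for the difference between round spermatids and pachytene spermatocytes. DESeq2 size factors called 1 gene in round spermatids. All 21 libraries in one fit called 7 in pachytene spermatocytes and 1 in round spermatids. With replicates 2 and 3 summed, 1 gene was called in round spermatids and 30 over the 3 stages, and *Atad2* changed by 0.05 in round spermatids. For the difference between condensing and round spermatids, *Brd2* was at 0.02 without a filter, summed and in one fit and at 0.00 with at least 10 counts, *Brd3* at 0.00 in one fit and *Atad2b* at -0.02 summed.

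Leaving out each replicate in turn, the genes called ran from 0 to 243 in pachytene spermatocytes (243 when wild-type replicate 3 was omitted), 1 to 264 at the round stage (264 on omission of wild-type replicate 1), 1 to 24 at the condensing stage (24 on omission of wild-type replicate 2), 21 to 109 over the 3 stages, 0 to 4 for the first difference and 0 to 1 for the second. From wild-type pachytene spermatocytes to round spermatids 0 to 1 of the 8 genes were lower, and *Brdt* ran from -0.11 to 0.13. In *H2al2* KO *Ep300* ran from -0.05 to 0.14, and *H2afb1* in the next wild-type step from -0.22 to 0.08. The *H2al2* KO effect ran from -0.28 to 0.16 for *Nutm1* in pachytene spermatocytes. In round spermatids it ran from -0.15 to 0.12 for *Atad2*, 0.00 to 0.18 for *Brdt*, -0.01 to 0.09 for *Brd2* and -0.10 to 0.04 for *Crebbp*. In condensing spermatids it ran from -0.08 to 0.12 for *Brd2*, -0.07 to 0.05 for *Ep300* and -0.01 to 0.10 for *Crebbp*, and over the 3 stages from -0.01 to 0.04 for *Brd3* and -0.02 to 0.11 for *Nutm1*. The first difference ran from -0.11 to 0.42 for *Nutm1* and -0.53 to 0.05 for *H2afb1*. The second ran from -0.12 to 0.11 for *Atad2b*, -0.11 to 0.09 for *Brd2*, -0.05 to 0.05 for *Brd3* and -0.12 to 0.01 for *Ep300*. Of the ratios, the first step ran from -0.50 to -0.26 for *Brdt* to *Brd2* and -0.07 to 0.01 for *Brd3* to *Brd2*. Between genotypes, the ranges were -0.09 to 0.04 for *Ep300* to *Crebbp* in pachytene spermatocytes, -0.07 to 0.14 for *Brdt* to *Brd2* and -0.03 to 0.07 for *Brd3* to *Brd2* in round spermatids, and -0.10 to 0.17 for *Atad2* to *Atad2b* and -0.09 to 0.13 for *Brd3* to *Brd2* in condensing spermatids.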
